A study of Homo sapiens with 6 samples.

Results

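The insulin-like growth factor (IGF) axis was followed across 6 single-colour arrays through 10 genes, the ligand IGF2, the receptors IGF1R, IGF2R and INSR, and the binding proteins IGFBP2 to IGFBP7. The members were found by annotated gene symbol, and all 10 were measured, by 16 of the 28264 probes, among 19090 named genes in all. The RNA came from cells that the labels call Hep3B, an established human hepatocellular carcinoma line, grown in DMEM with 10% serum, so that IGFs of the serum were present under both labels. For 3 arrays the label gives transfection with vector, called GFP in the titles, and for 3 it gives transfection with CCN5, a matricellular protein also known as WISP2. Whether the cells were pools or single clones, and whether the replicates were separate cultures, was stated nowhere in the labels, so p-values cover the spread between these arrays only. No untransfected cells are in the series, and every difference below is the CCN5 label relative to the vector label. In bulk RNA, a smaller number of cells of a kind and less RNA per cell cannot be told apart.

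IGF1 and IGF2 are small secreted hormones that signal mainly through IGF1R, a receptor tyrosine kinase closely related to the insulin receptor INSR. IGF2R has no kinase and carries bound IGF2 to lysosomes. IGF-binding proteins hold the ligands outside the cell, lengthen their life and restrict or deliver them to receptors, and proteases release the ligand by cutting them. In liver cancer, re-expression of fetal IGF2 is a well-known feature. CCN proteins, CCN5 among them, carry an amino-terminal domain related to that of the IGF-binding proteins.

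A few readings of the arrays stood apart from what their labels name, and they touch every value below. The CCN5 probe read 835, 836 and 880.3 on vector replicates 1 to 3, and 673, 672 and 619.5 on CCN5 replicates 1 to 3. Its signal was thus lower where CCN5 is the label, without passing the test (log2 difference -0.34, SE 0.09, limma adjusted p 0.151). This rests on 1 probe, and whether it reads the transfected sequence was not tested. Of 10 measured hepatocyte and hepatoma markers, all 10 lay below the 50th percentile of signal, with albumin (ALB) at percentile 12.2, AFP at 26.7 and GPC3 at 16.3. Of 7 measured markers of squamous epithelium, 6 lay above it, from IVL at percentile 54.7 to the basal keratin KRT5 at 98.4, and SPRR1B lay at 48.7. The cells are therefore called by their label only, and directions rest on the labels alone. Vector replicate 1 stood apart in having 1330 probes below 0, where the other arrays had 0 to 12, and values without it are given near the end. Over all 28264 probes limma called 0 higher and 0 lower, which is 0% of the probes tested.

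To show what stands upstream of the members that differed most, promoter windows of the 4 genes with the smallest p are printed here, from 250 bases before to 50 bases after an annotated start, as RefSeq gives them for GRCh38.p14. Of the 10 members, 8 had a window in that table. IGF2 and IGFBP7 are named only. For IGFBP2, with 3 windows, the one richest in G and C is shown. Capitals mark the letters GGGCGG, the core of a GC box, on either strand.

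IGF1R, chr15:98648289-98648588, plus strand: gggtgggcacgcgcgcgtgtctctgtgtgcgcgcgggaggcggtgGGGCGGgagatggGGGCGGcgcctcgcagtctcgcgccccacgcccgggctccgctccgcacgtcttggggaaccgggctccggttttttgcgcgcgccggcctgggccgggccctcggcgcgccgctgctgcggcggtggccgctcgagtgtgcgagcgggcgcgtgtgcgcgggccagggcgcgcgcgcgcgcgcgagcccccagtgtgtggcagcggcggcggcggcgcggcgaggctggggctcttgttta
IGFBP2, chr2:216633170-216633469, plus strand: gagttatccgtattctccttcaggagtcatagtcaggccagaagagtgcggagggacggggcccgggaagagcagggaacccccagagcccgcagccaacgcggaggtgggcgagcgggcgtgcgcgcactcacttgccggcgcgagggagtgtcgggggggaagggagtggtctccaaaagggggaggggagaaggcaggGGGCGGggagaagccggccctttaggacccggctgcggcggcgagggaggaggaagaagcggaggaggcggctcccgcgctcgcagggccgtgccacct
IGFBP3, chr7:45921223-45921522, minus strand: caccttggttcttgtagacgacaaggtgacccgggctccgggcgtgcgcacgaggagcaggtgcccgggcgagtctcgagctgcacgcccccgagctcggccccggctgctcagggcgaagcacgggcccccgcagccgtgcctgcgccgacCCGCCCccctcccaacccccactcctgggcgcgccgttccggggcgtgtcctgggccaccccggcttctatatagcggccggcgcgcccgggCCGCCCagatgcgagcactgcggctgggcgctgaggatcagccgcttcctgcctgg
IGFBP6, chr12:53097417-53097716, plus strand: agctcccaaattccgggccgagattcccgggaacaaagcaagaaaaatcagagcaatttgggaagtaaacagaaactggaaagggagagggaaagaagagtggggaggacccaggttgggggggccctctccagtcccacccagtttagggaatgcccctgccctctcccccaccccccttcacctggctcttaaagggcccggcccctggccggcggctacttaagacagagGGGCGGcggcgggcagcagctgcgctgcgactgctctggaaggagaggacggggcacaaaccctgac

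The GC box core was present in 45.0% of all 35116 windows of that length, so its presence sets none of these promoters apart. It occurred 2 times in the window of IGF1R, 2 times in that of IGFBP3, and 1 time each in those of IGFBP2 and IGFBP6. G and C made up 79.7% of the IGF1R window, which is percentile 97.4 of all windows, against 61.7% for IGFBP6 and a median of 58.7%. The letters TATAAA, found in 11.5% of all windows on either strand, were in none of these 4, while the window of IGFBP4 held them 1 time. The E-box letters CACGTG, in 7.26% of all windows, stood 3 times in the window of IGF2R and in no other window of the members. These are matches of letters and do not show binding.

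The axis leaned towards lower signal with the CCN5 label, without any probe passing the test. For 7 of the 16 probes the highest of the 3 CCN5 arrays was below the lowest of the 3 vector arrays, against 14.8% of all probes, and for 0 of 16 they lay above, against 11.8%. The same 7 probes, those of IGF1R, IGFBP2, IGFBP3, IGFBP6, INSR and 2 of IGF2, had an unadjusted limma p under 0.05. Over all probes, 10.4% had such a limma p in the lower and 8.62% in the higher direction. In an exact permutation test (two-sided) these 7 probes had p = 0.1, below which groups of 3 cannot go. That exact p only restates that their arrays did not overlap. With the brightest probe of each gene, 7 of 10 members were lower, with a median log2 difference of -0.29, beside -0.01 over all 19090 genes, of which 51.9% were lower. The smallest adjusted p among the members was 0.158, so none was separated from the noise of the whole table. The members were picked with results of these arrays known, and the counts describe these 10 genes only.

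**Figure D1:**
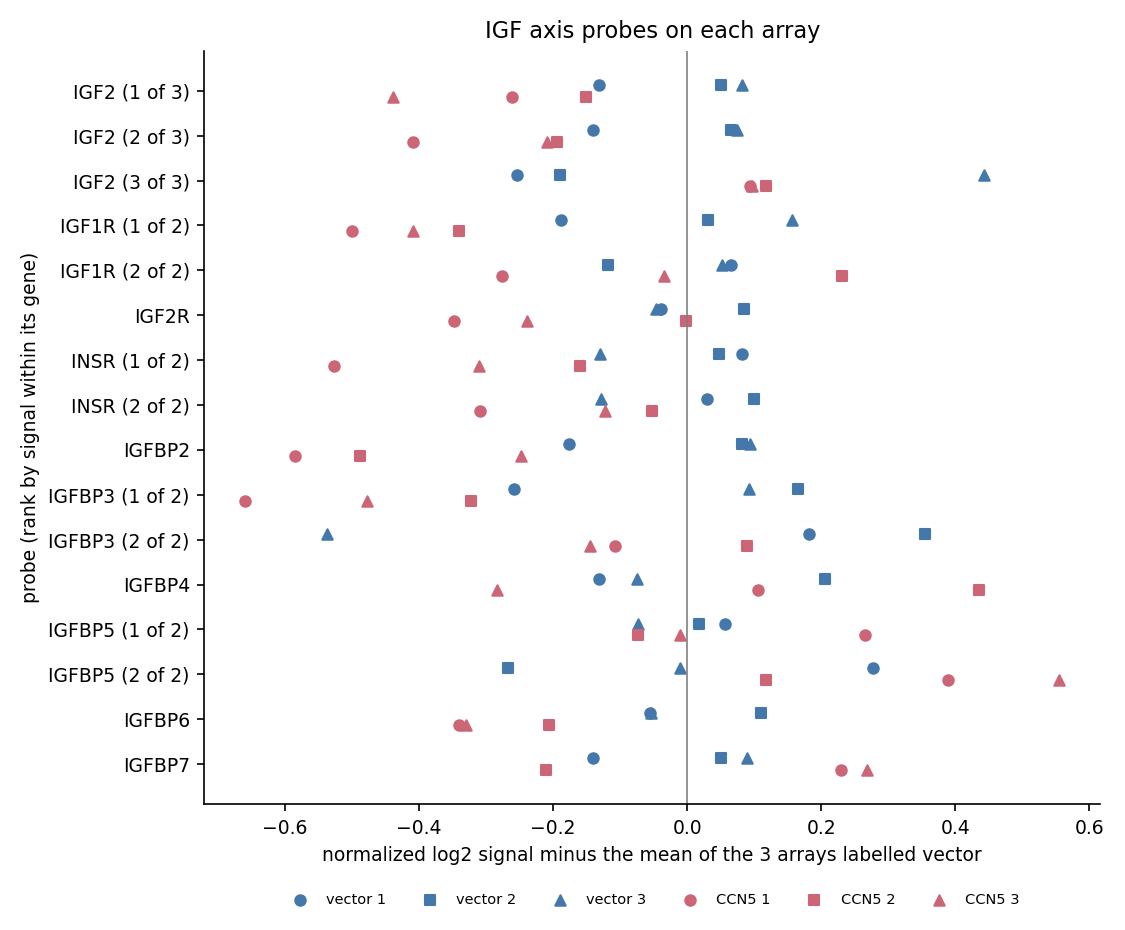
Each row is 1 probe of an IGF axis gene, and each point is 1 array, as normalized log2 signal minus the mean of the 3 arrays labelled vector (blue, CCN5 label in red, marker shape for replicate number). In 7 of the 16 rows the 3 red points lie left of all 3 blue ones, among them the brightest probes of IGF1R, IGFBP2, IGFBP3 and IGFBP6, and in 0 rows do they lie right of all of them.

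IGF2, the fetal ligand, was lower on its 2 brighter probes. The brightest read an intensity of 976, 1156 and 1197 on vector replicates 1 to 3 and 968, 961 and 756 on CCN5 replicates 1 to 3. Vector replicate 1 thus stood barely above CCN5 replicate 1. The log2 difference was -0.28 (SE 0.11, 95% interval -0.56 to -0.01, limma adjusted p 0.251). The second probe read 603, 739 and 763 against 569, 570.3 and 548, a difference of -0.27 (SE 0.11, adjusted p 0.252), so both placed the groups apart by about the same amount. The third probe was dim, at percentile 22.9 of signal, and ran the other way, with 58.8, 108 and 155 against 129, 103 and 105, a log2 difference of 0.10 (SE 0.19). Its vector arrays spanned more than all its arrays labelled CCN5. Of the overlapping transcripts at the locus, the INS-IGF2 readthrough probe lay at percentile 0.888 and the antisense IGF2-AS at 23.4, with differences too wide to place (95% intervals -0.85 to 0.62 and -0.88 to 0.69). Whether an IGF2 probe also reads the readthrough transcript was not tested.

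IGF1R, the signalling receptor, had the smallest p of the members. Its bright probe read 3875, 4458 and 4878 on vector replicates 1 to 3 and 3124, 3474 and 3222 on CCN5 replicates 1 to 3, means of 4404 ± 504 and 3273 ± 181 (SD, n = 3). The groups did not overlap, and the gap between the lowest vector array and the highest CCN5 array was smaller than the spread among the vector arrays. Normalized signal was 1.33-fold higher with the vector label (log2 difference -0.42, SE 0.12, 95% interval -0.70 to -0.14, limma adjusted p 0.158). A second probe at percentile 50.1 showed no such step, with 550.1, 526 and 603 against 496, 617 and 493 and a difference of -0.03 (SE 0.15, 95% interval -0.38 to 0.32). CCN5 replicate 2 was the highest of its 6 arrays. The lowest was CCN5 replicate 3 in deposited intensity and CCN5 replicate 1 after normalization.

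INSR, the insulin receptor, which also binds IGF2 in its fetal splice form, was lower on its brighter probe at percentile 40.5. That probe read 341, 373 and 339 with the vector label and 274, 288 and 252 with the CCN5 label, without overlap (log2 difference -0.33, SE 0.12, limma adjusted p 0.229). Its other probe, at percentile 10.1, read 19.9, 67.1 and 48.3 against 43.9, 43.4 and 50.6. There the log2 difference was -0.16 (SE 0.11) after quantile normalization, and 0.19 on the deposited scale, a turn of sign. Signals this low came in steps, and 136 to 264 probes of an array, this one included, held exactly its value. IGF2R, the clearance receptor, read 2634, 2877 and 2635 against 2177, 2698 and 2228. CCN5 replicate 2 lay within the vector arrays, and the difference of -0.20 (SE 0.12, 95% interval -0.47 to 0.08, adjusted p 0.408) did not pass.

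**Figure D2:**
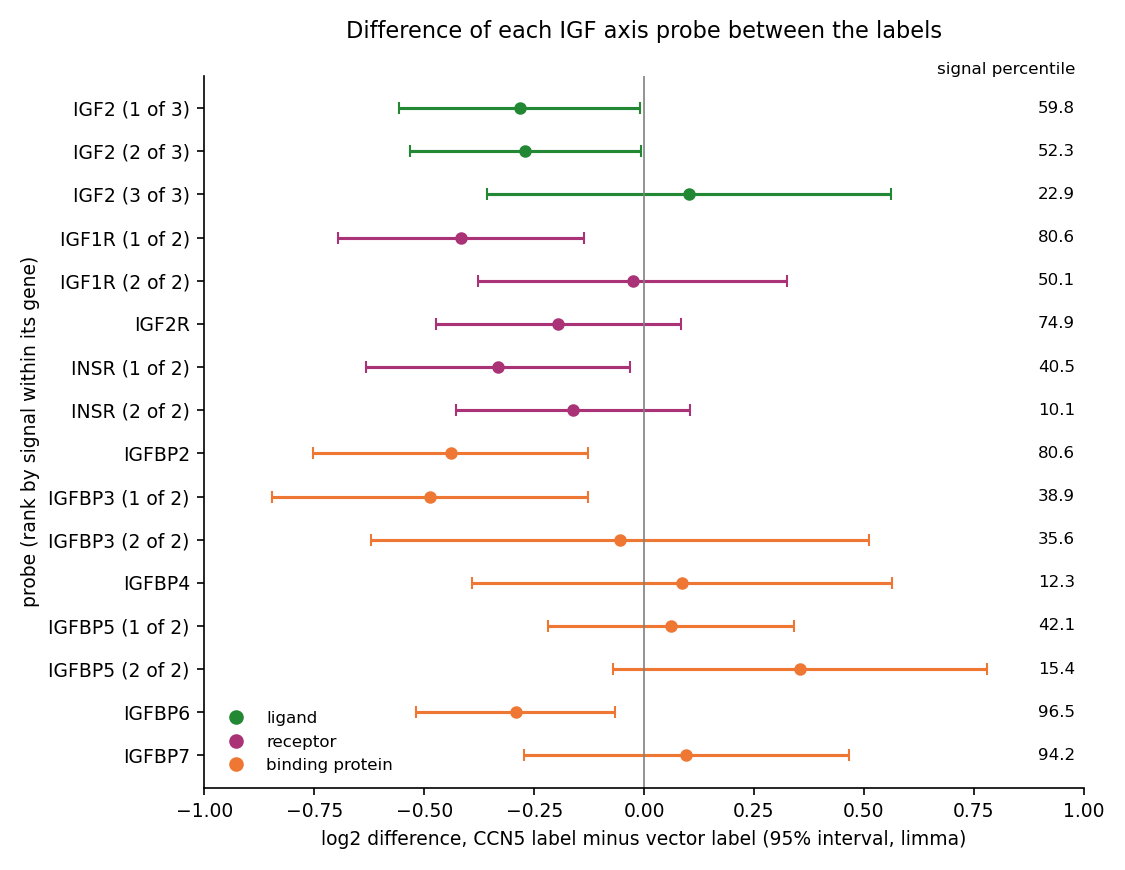
Points are the log2 difference of each probe between the CCN5 and vector labels (n = 3 arrays each) with its 95% interval from limma, coloured by role, and the number at the right is the probe's percentile of mean signal. The intervals of 7 probes, from IGF2 at -0.27 to IGFBP3 at -0.49, lie below 0 before adjustment, and those of IGFBP4, IGFBP5 and IGFBP7 span 0.

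None of the 6 binding proteins passed the test. By their brightest probes 3 of 6 stood below 0, a share close to the 51.9% of all genes. IGFBP2, a binding protein with high affinity for IGF2, read 3946, 4647 and 4716 on vector replicates 1 to 3 and 2969, 3174 and 3634 on CCN5 replicates 1 to 3. The groups did not overlap, and normalized signal was 1.36-fold higher with the vector label (log2 difference -0.44, SE 0.13, 95% interval -0.75 to -0.13, limma adjusted p 0.170). IGFBP6, which prefers IGF2 over IGF1, lay at percentile 96.5 of signal with 29244, 30869.8 and 27772.5 against 23079, 26632 and 24336. Its means were 29295 ± 1549 and 24682.5 ± 1802 (SD, n = 3). The groups did not overlap, and the interval was the narrowest of the members (log2 difference -0.29, SE 0.09, 95% interval -0.52 to -0.07, adjusted p 0.190).

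IGFBP3, the main carrier of IGFs in blood, gave the largest difference of the axis on one probe and almost none on the other. The brighter probe, at percentile 38.9, read 250.1, 387 and 374 with the vector label and 240.1, 244 and 216 with the CCN5 label (log2 difference -0.49, SE 0.15, 95% interval -0.85 to -0.13, limma adjusted p 0.179). Vector replicate 1 stood much nearer to the arrays labelled CCN5 than to its own group. The second probe, at percentile 35.6, read 236, 316 and 176 against 251, 230.4 and 198, where the vector arrays bracketed all others (difference -0.05, SE 0.24).

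The other binding proteins had overlapping labels. IGFBP4, a soluble inhibitor of IGF action, was dim at percentile 12.3 and read 19.9, 75.5 and 56.6 against 63.6, 62.3 and 50.6 (log2 difference 0.09, SE 0.20), with 140 to 264 probes of an array at exactly its value. On the deposited log2 scale its difference was 0.41, and with median centring 0.46. IGFBP5, a matrix-bound protein, read 319, 353 and 339 against 442, 296.5 and 304 on its brighter probe (0.06, SE 0.12, 95% interval -0.22 to 0.34), where CCN5 replicate 1 alone stood out. Its dimmer probe, at percentile 15.4, read 42.9, 67.1 and 65.9 against 93.2, 60.4 and 83.4 (0.35, SE 0.18, limma adjusted p 0.332). IGFBP7, a low-affinity relative found in basement membranes, lay at percentile 94.2 and read 14644.5, 16090.4 and 16720.3 against 18672, 14310.4 and 19862. CCN5 replicates 1 and 3 were above, and CCN5 replicate 2 below, all vector arrays, and the difference of 0.10 (SE 0.15, 95% interval -0.27 to 0.47) did not pass.

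**Figure D3:**
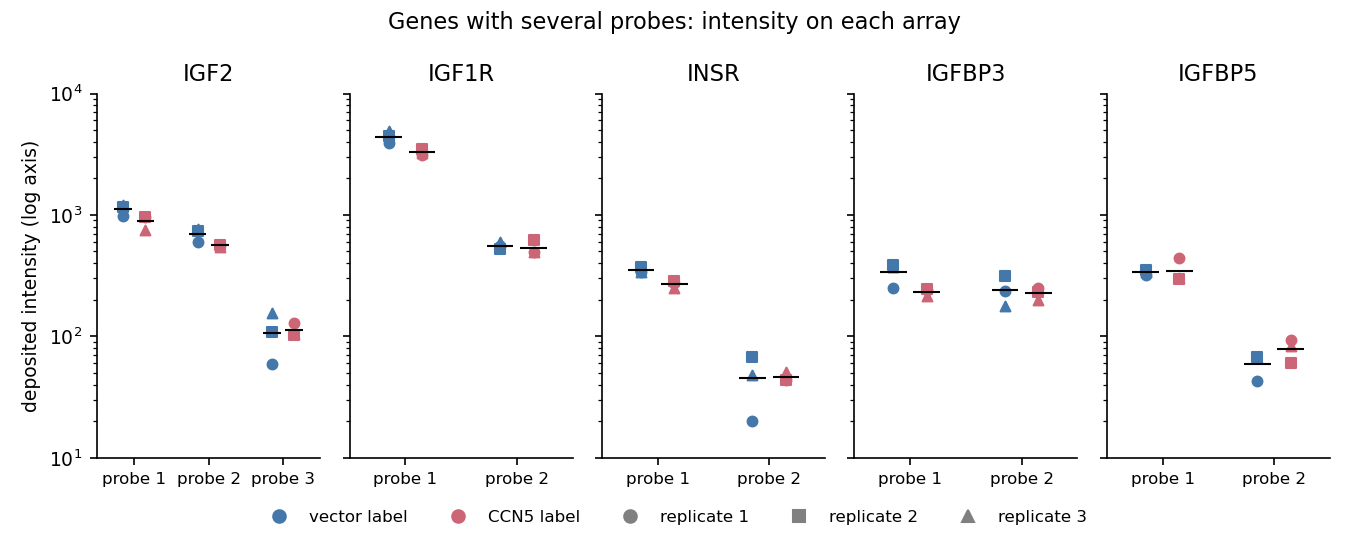
Deposited intensity on a log axis for the 5 genes with more than 1 probe, ordered from the brightest probe, with 1 point per array, colour for label, marker shape for replicate and a bar at the mean of the 3 arrays. Probe 1 separates the labels for IGF2, IGF1R, INSR and IGFBP3 and not for IGFBP5, and the last probe of each gene shows overlapping arrays.

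Of these 5 genes, 4 had a bright probe with separated labels and another without. The test of that disagreement used the log2 ratio of 2 probes of a gene on each array, over 6 pairs of probes. The difference between labels was further below 0 for the bright IGF1R probe than for its partner, by -0.39, with an exact two-sided permutation p of 0.2. For INSR the ratio was lower on all 3 arrays labelled CCN5 (-0.17, exact p 0.1, the smallest that 3 arrays against 3 allow). For IGFBP3 the disagreement was -0.43 (exact p 0.3) and for the dim IGF2 probe -0.39 (exact p 0.3). After Benjamini-Hochberg adjustment over the 6 pairs the exact p was 0.36 for these. With 3 arrays against 3 no pair could pass, so these p-values decide nothing. The disagreements are given as a description, and whether the probes of a gene differed unequally between labels was not settled. With the mean of a gene's probes in place of the brightest one, the log2 difference was -0.22 for IGF1R, -0.25 for INSR, -0.27 for IGFBP3, -0.15 for IGF2 and 0.21 for IGFBP5. The positions of the probes in their transcripts were not analysed here.

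Unequal differences between members were examined in the same way for 3 contrasts chosen after the values were seen. With 3 arrays against 3 the exact p cannot fall below 0.1, so none of these contrasts could pass. Their p-values therefore decide nothing, and the differences are given as a description. IGFBP2 and IGFBP5 are next to each other on chromosome 2, with 0 annotated genes starting between them in the RefSeq table. The log2 ratio of IGFBP5 to IGFBP2 was 0.50 higher with the CCN5 label, and its 3 arrays, from -3.49 to -2.88, lay above those labelled vector, from -3.90 to -3.50 (exact two-sided permutation p 0.1, adjusted 0.3). The highest vector array and the lowest CCN5 array were almost level. For IGFBP7 against IGFBP6 the ratio was 0.39 higher, with overlapping arrays (exact p 0.2, adjusted 0.3). The differences of IGF1R and INSR lay -0.08 apart (exact p 0.8), which with 3 arrays each does not show that the receptors behaved alike.

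The other genes of the pathway did not share a direction. Of 62 listed genes 58 were measured, with 30 lower and 28 higher on the brightest probe and a median log2 difference of -0.01, the same to 2 decimals as over all genes. Adjusted over all probes, 0 of the 58 passed. The arrays of the labels did not overlap for 16 lower and 10 higher genes, against 3047 and 2293 of all 19090 genes. On the lower side that is 27.6% of the measured list, above the 16.0% of all genes. The higher side, with 10 of 58 against 2293 of 19090, also lay above the share of all genes. The list was written with results of these arrays known.

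Among ligands and partners of the circulating complex, the hormone IGF1 stood at 0.12 (SE 0.11) on its brighter probe, insulin (INS) at -0.26 (SE 0.14) and the binding protein relative IGFBPL1, at percentile 1.71, at -0.40 (SE 0.15). The orphan receptor relative INSRR stood at 0.16 (SE 0.45). LRP1, an endocytic receptor that also binds IGFBP3, differed by -0.39 (SE 0.13, limma adjusted p 0.196), and TMEM219, described as an IGFBP3 receptor, by -0.31 (SE 0.11). Both had separated labels on the lower side, which held for 16.0% of all genes. IGFBPL1 was likewise separated after normalization, but overlapped in deposited intensity.

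Of 9 genes for proteases that cut binding proteins and their inhibitors, none passed the test. Labels were separated for 2 on the higher and 2 on the lower side. Of all 19090 genes, 2293 were separated on the higher side and 3047, or 16.0%, on the lower. ADAM9, a membrane metalloprotease that can cut IGFBP5, read 6398, 7142 and 6983 on vector replicates 1 to 3 and 10307, 8753 and 11879 on CCN5 replicates 1 to 3. The groups were apart (log2 difference 0.57, SE 0.13, limma adjusted p 0.138), and its other probes gave 0.29 and 0.48. PAPPA2, a secreted protease of IGFBP3 and IGFBP5, read 252, 156 and 309 against 504, 351 and 472 (1.00, SE 0.30, adjusted p 0.175), with a second probe at percentile 0.417 of signal at -0.72 (SE 0.42). On the lower side were the metalloprotease ADAM28 at -0.26 (SE 0.14) and the lysosomal protease CTSD at -0.22 (SE 0.12), both separated after normalization and overlapping in deposited intensity. CTSD was named after its values were seen. In sign alone, 6 of the 9 genes were lower and 3 higher.

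Below the receptors, the adaptor SHC1 read 21489, 23115 and 23835 with the vector label and 17609, 18128 and 15871 with the CCN5 label. The groups were apart (log2 difference -0.45, SE 0.10, limma adjusted p 0.136). The docking protein IRS1, at percentile 26.2, differed by -0.39 (SE 0.10, adjusted p 0.152) and the adaptor SH2B2 by 0.27 (SE 0.09). The kinase AKT2 stood at -0.43 (SE 0.14) on its brightest probe, with other probes at 0.25 and -0.27, while the lipid phosphatase INPPL1 stood at 0.18 (SE 0.08) and the kinase PDPK1 at 0.27 (SE 0.14). Among effectors, the transcription factors FOXO4 (-0.44, SE 0.12) and FOXO1 (-0.34, SE 0.10), which AKT keeps out of the nucleus, and the mTORC1 brake TSC1 (-0.42, SE 0.12) were lower with separated labels, with adjusted p from 0.156 to 0.167. Of the 14 effectors 7 were lower and 7 higher, and labels were separated for 6 on the lower and 3 on the higher side. Over all 19090 genes these counts were 3047 and 2293.

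Of the RNA-binding proteins of IGF2 mRNA none passed the test. IGF2BP1 stood at 0.28 (SE 0.11, limma adjusted p 0.253) with separated labels, and IGF2BP3 at 0.31 (SE 0.16) and IGF2BP2 at 0.08 (SE 0.10) overlapped, beside the imprinted neighbour H19 at -0.15 (SE 0.13) and 0.02 on its second probe. Of the CCN family, CCN3 stood at 0.61 (SE 0.18) and CCN4 at -0.09 (SE 0.09), beside CCN5 at -0.34.

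**Figure D4:**
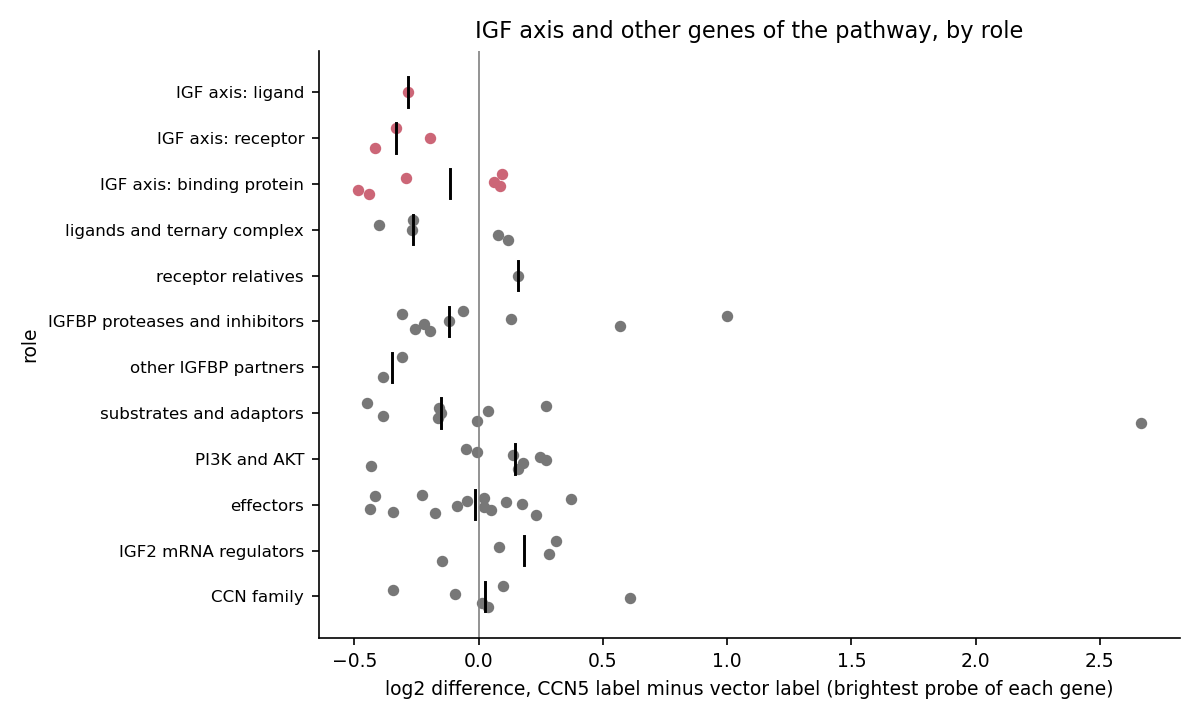
Each point is the log2 difference (CCN5 label minus vector label) of the brightest probe of 1 gene, grouped by role, with the median of each role as a black bar and the IGF axis members in red. The 3 receptors and the ligand lie left of 0, from -0.42 to -0.20, the binding proteins split 3 and 3, and the point at 2.66 is GRB10, which rests on 3 bright and 3 dim arrays (SE 3.94).

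Over the 6 arrays, the probes whose pattern was most like that of the bright IGF1R probe belonged to C14orf132 (Pearson r 0.996), EHHADH, a peroxisomal enzyme (0.992), and KDELR3, a receptor for returning proteins to the endoplasmic reticulum (0.991). They were the best of 13155 probes in the brighter 50%, share the same 6 arrays and their normalization, and are given as a description with no test.

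A lean to lower signal was also present among marker genes of cell types. Of 33 measured, 25 were below 0 (75.8%, against 51.9% of all genes) and 0 passed the test. The squamous keratin KRT14 stood at -0.62 (SE 0.11, limma adjusted p 0.106), further from 0 than any member. On the lower side 3 of 7 squamous markers, KRT14, IVL and PKP1, had separated labels after normalization, against 16.0% of all genes. IVL overlapped in deposited intensity, with 718 on vector replicate 1 and 758 on CCN5 replicate 1. The brightest of the 7, the keratin KRT5, ran the other way at 0.40 (SE 0.17), with overlapping labels. PKP1's second probe also stood above 0, at 0.26 (SE 0.15). By their brightest probes 5 of the 7 were lower and 2 higher. Of 5 leukocyte markers 3 were separated and lower, beside the same 16.0% of all genes. They were CD68 at -0.41 (SE 0.09), CSF1R at -0.53 (SE 0.12) and CD14 at -0.34 (SE 0.13). The defining genes PTPRC (percentile 15.1 of signal, -0.07, SE 0.15) and CD3E (percentile 12.3, -0.43, SE 0.20) were dim and overlapped. The mean intensity of the 5 on an array, to which CD68 gave the most, ranged from 1238 to 1386 with the vector label and from 889 to 1050.4 with the CCN5 label. Over all marker lists 0 probes were listed at exactly 0, but the second probe of the fibroblast marker COL1A2 read -8.97 on vector replicate 1. Of 7 fibroblast markers 1 was separated and lower (LUM, -0.55, SE 0.12, its second probe at 0.68, SE 1.05). Of 4 endothelial markers 1 was as well (PECAM1, -0.39, SE 0.10). Of 10 hepatocyte markers 1 was separated and lower (ALB, -0.46, SE 0.13) and 1 higher (GPC3, 0.33, SE 0.15), both overlapping in deposited intensity. Means of all lists but the leukocyte one overlapped. Those of hepatocyte markers lay at 175 to 210.4 against 159 to 212, those of squamous markers at 16229 to 18415 against 17368 to 18833, those of fibroblast markers at 349 to 737 against 562 to 705, and those of endothelial markers at 388 to 424 against 296 to 471. The part of these cells or of array quality in the lower IGF signals was not tested.

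How far the calls rested on the analysis was read from 15 alternatives, the mean of a gene's probes among them. No member passed under any of them. With the dimmer 50% of probes left out, where 4.01% of probes were called lower and 3.06% higher, 0 of the 8 members' probes tested passed, and limma's adjusted p was 0.0521 for IGF1R, 0.0574 for IGFBP2 and 0.0743 for IGFBP6. The 7 probes with separated labels stayed lower in every alternative they entered. IGF2R stayed below 0 as well, but ranged from -0.29 without CCN5 replicate 2 to -0.12 without CCN5 replicate 1. IGF1R ranged from -0.51 without vector replicate 1 to -0.34 without vector replicate 3, and IGFBP2 from -0.54 without CCN5 replicate 3 to -0.37 without CCN5 replicate 1. Without vector replicate 1, IGFBP3's brighter probe stood at -0.60. Values above 0 throughout were those of the dimmer IGFBP5 probe, from 0.23 without vector replicate 2 to 0.47 without CCN5 replicate 2 when 1 array was left out, and of IGFBP7, from 0.0099 without CCN5 replicate 3 to 0.25 without CCN5 replicate 2.

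**Figure D5:**
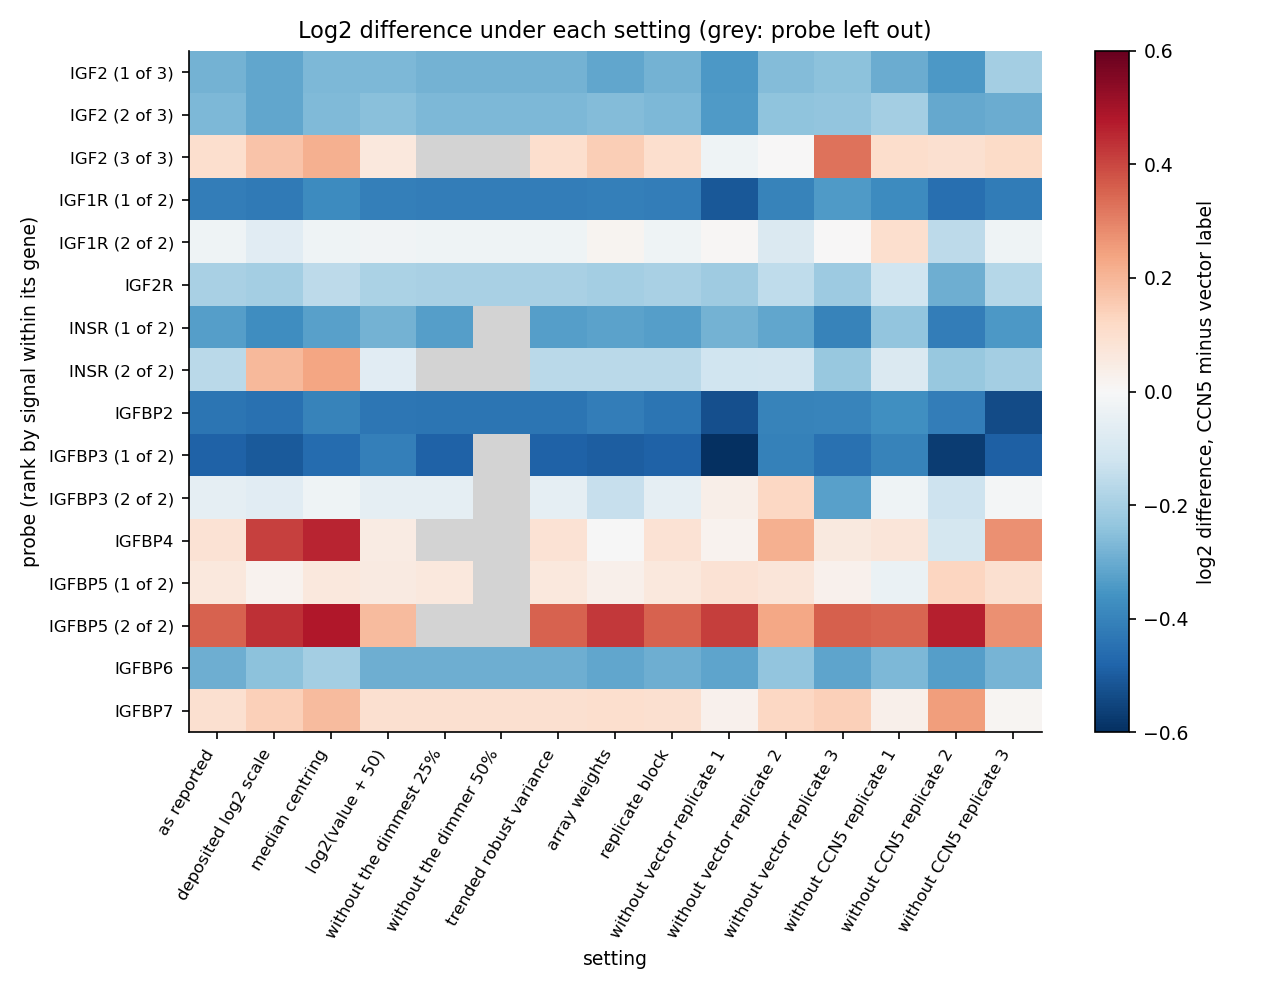
Colour gives the log2 difference (CCN5 label minus vector label) of each IGF axis probe (rows) as reported and under 14 alternatives (columns), with grey where a filter left the probe out. The rows of IGF1R (1 of 2), IGFBP2, IGFBP3 (1 of 2), IGFBP6, INSR (1 of 2) and IGF2 (1 and 2 of 3) stay blue throughout. The rows of IGFBP4, the third IGF2 probe, the brighter IGFBP5 probe and the second IGF1R, INSR and IGFBP3 probes change sign.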

How the data were processed

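Linear intensities, 1 for each probe on each array, were deposited by the authors. The labels name neither scanner nor background correction nor normalization. Per the labels' protocols, a T7 oligo(dT) primer copied total RNA into antisense RNA, and the dye was Cy3. Such priming favours the ends of transcripts next to the poly(A) tail. Values below 0 occur on 3 arrays, 1330, 12 and 6 probes.

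Intensities under 1 were set to 1, taken to log2 and quantile normalized. All 28264 probes were tested with limma 3.58.1 in R 4.3.3 (two-sided, no covariates, Benjamini-Hochberg over all probes, threshold 0.05) on 3 arrays a label. The number of arrays limits the precision. A platform table named 25893 probes, and 2371 stay unnamed. The percentile of a probe's mean normalized signal serves as its brightness, since no detection flags were used here.

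The members and lists were chosen with earlier results of these data known. Named are all members, CCN5, up to 3 pathway genes of smallest p per role, by their brightest probe, and the 3 probes most like the member of smallest p. GRB10 and the 3 contrasts between members were chosen after their values were seen. Of the pathway list, 4 genes, and of the 39 markers, 6, were not analysed here. The alternatives were 2 other scalings, an offset of 50, filters on the dimmest 25% or 50% of probes, another variance model, array weights, a replicate block, leaving out each array, and the mean of a gene's probes. Same-number deviations from the group means correlated at -0.14, 0.12 and 0.02, so the numbers were not taken as pairs.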

Additional observations from a re-analysis of the deposited data

How the results depend on the processing

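No member passed under any setting, and of 212 values of single probes under 14 alternatives, the mean of probes left aside, 200 kept their direction and 12 turned. The second INSR probe turned to 0.19 on the deposited log2 scale and 0.24 with median centring. With array weights the second IGF1R probe turned to 0.017 and IGFBP4 to -0.0023. Without 1 array, values ran from -0.024 to 0.33 for the third IGF2 probe, -0.15 to 0.10 for the second IGF1R probe, -0.33 to 0.13 for the second IGFBP3 probe, -0.11 to 0.27 for IGFBP4 and -0.040 to 0.13 for the brighter IGFBP5 probe. The cause was not tested.

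Pathway probes past the threshold numbered 0 as reported, 4 without the dimmer 50% of probes (ADAM9, SHC1, FOXO4 and CCN5, at -0.34 with limma's adjusted p 0.0486) and 2 with a trended, robust variance (ADAM9 and SHC1). Over all probes, calls higher and lower numbered 0 and 0 as reported, 432 and 567 without the dimmer 50%, 33 and 151 without the dimmest 25%, 80 and 225 with log2(value + 50) after the floor, and 188 and 336 with the robust variance. Leaving out the dimmer 50% shortened the list over which p is adjusted and also lowered the unadjusted p of CCN5, from 0.00764 to 0.00324 at the same difference. The parts of the 2 were not told apart, and for the other settings the cause was not tested. The replicate block gave 0 member probes and -0.34 for CCN5, and changed no call. The median of all probes moved to 0.03 on the deposited scale and 0.08 with median centring. Dim probes limit what can be said of IGFBP4 and of the dimmer INSR, IGFBP5 and IGF2 probes, as no level separates signal from background here.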

Other observations

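GRB10, an adaptor that binds IGF1R and INSR and restrains them, was named after its values were seen. Its probe read 13719 on vector replicate 2, 10408 on CCN5 replicate 1 and 12726 on CCN5 replicate 2, but -19.9 and 19.5 on vector replicates 1 and 3 and 16.9 on CCN5 replicate 3. Both labels thus held arrays at full signal and arrays near 0. Of all 28264 probes, 4 read under 50 on 1 array and over 5000 on another of the same label, and GRB10 was the 1 that did so under both labels. No member of the axis was among the 4.

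The number of distinct values on an array was 22.5% to 26.0% of its number of probes, so many probes shared a value.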
